A study of Homo sapiens with 2 samples.

Results

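The genes described here carry the symbols of the nuclear subunits of the 5 complexes of oxidative phosphorylation, in the established human colorectal cancer line SW48. They were chosen by gene symbol, with earlier results of these data known. Complex I was taken as the probes annotated to NDUFA, NDUFB, NDUFC, NDUFS and NDUFV genes, and complex II as SDHA to SDHD. Complex III was taken as UQCR genes, complex IV as COX4 to COX8 genes and complex V as ATP5 genes. This gave 107 of the 48803 probes and 79 of the 18852 named genes, with 33 genes in complex I, 3 in complex II, 9 in complex III, 16 in complex IV and 18 in complex V. Of these, 75 are subunit genes, and 4 share the symbol but are an inhibitor gene (ATP5IF1) or copies of subunit genes (UQCRHL, UQCRBP1 and ATP5F1EP2). The treated culture received AKBA (acetyl-11-keto-β-boswellic acid), which is found in the resin of Boswellia trees, at 20 µM for 6 days. The control is given as dimethyl sulfoxide at 0.1% in the treatment protocol and as not treated in the source name, so what the control culture received is not settled by the labels. Both cultures were grown in Iscove's medium with serum, and each group was 1 Illumina bead array, so the differences have no replicate check and no p-value of a difference was computed. In a culture extract, fewer cells of a type and less RNA per cell cannot be told apart.

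Oxidative phosphorylation takes place in the inner mitochondrial membrane. Complexes I and II pass electrons from NADH and succinate to coenzyme Q, complex III passes them to cytochrome c and complex IV to oxygen, and the proton gradient built by complexes I, III and IV drives ATP synthesis by complex V. Most subunits are encoded in the nucleus, and the core of complexes I, III, IV and V also contains subunits encoded by the mitochondrial genome, for which no probe was analysed here. Colorectal cancer cells in culture use both this pathway and glycolysis for ATP.

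Of the 79 genes, 68 were detected on both arrays at a detection p under 0.01, 0 on 1 array only and 11 on neither. Differences are given as AKBA minus control on the log2 scale after background correction and quantile normalization, and signals are the deposited bead signals before either step. The AKBA array was dimmer, with a median signal ratio of AKBA over control of 0.808 over the 8639 detected genes and of 0.844 over the 68 members, and the deposited signal was higher on the AKBA array for 5 of the 68 members, against 869 of the 8639 detected genes. A difference of 0.32 on the log2 scale is 25% above the control, or 20% below it, on the linear scale. On the normalized scale the members lay close to 0, with 61 of 68 (89.7%) inside a limit of 0.32 in either direction, against 73.8% of all detected genes. Past that limit, 5 members were higher (11.1% of the detected genes were) and 2 were lower (15.1% of the detected genes were), against 26.2% of the detected genes in either direction. The detected genes include some detected on 1 array only, while all 68 members were detected on both. Of the 7930 genes detected on both arrays, 11.5% were higher, 12.3% lower and 76.2% inside the limit. The members' share past the limit was thus below that of either set of genes in both directions. At 1.5-fold, 2 members were higher and 0 lower, where 2.91% of the detected genes were higher, 4.36% lower and 7.27% either. At 2-fold, 0 members differed, where 0.405% of the detected genes were higher, 0.347% lower and 0.752% either.

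The median difference of the 68 members was 0.04 on the log2 scale, against -0.02 over all detected genes. The standard deviation across members was 0.21, against 0.32 across all detected genes. The members were also set against detected genes of a like signal. Among the 822 detected genes within the middle signal range of the members, 81.9% lay inside the limit and the standard deviation was 0.27. The 34 members in that range had 94.1% inside it and a standard deviation of 0.17. This range was set after the values were seen.

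**Figure D1:**
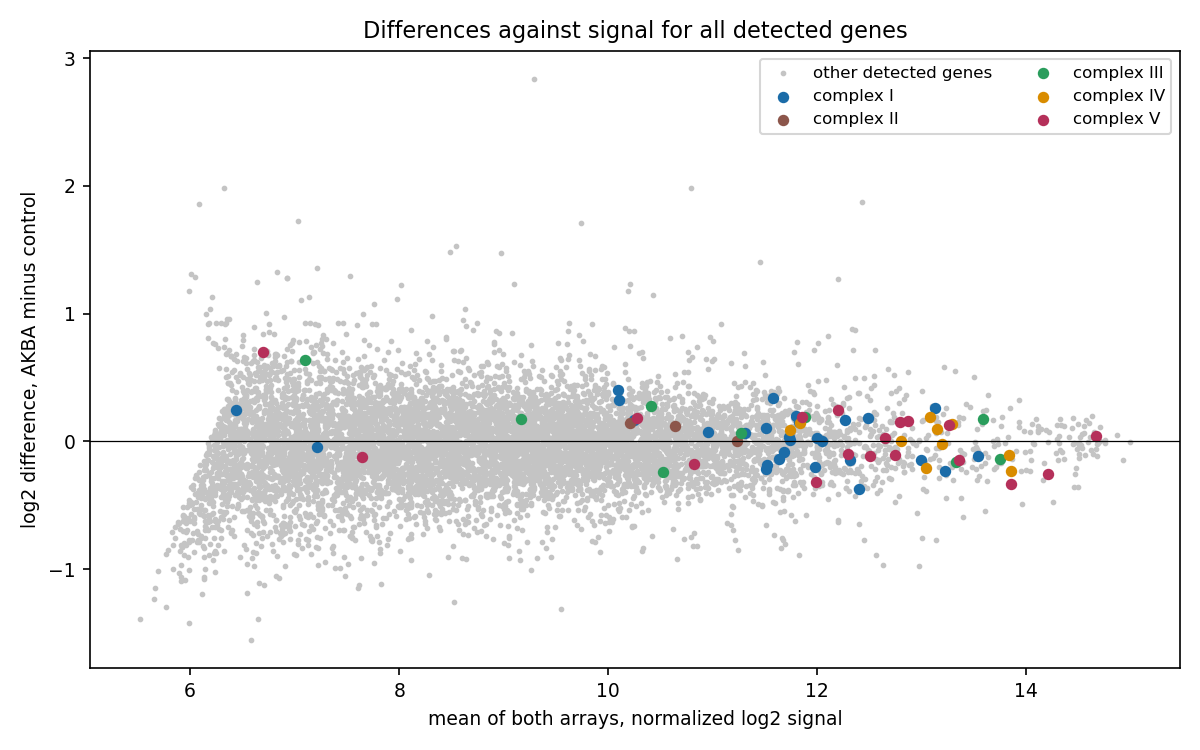
Each point is 1 detected gene, with the mean normalized log2 signal of both arrays on the x axis and the log2 difference (AKBA minus control) on the y axis, grey for other genes and coloured by complex for the 68 members. The members sit in the band around 0, and the members furthest up, ATP5MK and UQCR11, lie at the dim end.

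By complex, the median difference was 0.03 in complex I (28 detected members, range -0.37 to 0.40), 0.12 in complex II (3 members, 0.002 to 0.14), 0.18 in complex III (9 members, -0.24 to 0.63), 0.05 in complex IV (10 members, -0.23 to 0.19) and -0.03 in complex V (18 members, -0.33 to 0.70). The ranges of all 5 complexes overlapped. The standard deviation across members was 0.20 in complex I, 0.08 in complex II, 0.27 in complex III, 0.15 in complex IV and 0.25 in complex V. In complexes I, III, IV and V members lay on both sides of 0. Members of complex I stood above 0 in 16 cases and below in 11, and members of complex V in 9 and 9. Relative to the median of all detected genes, the median of complex V was -0.01 as processed here. On that scale it was 0.03 with the arrays scaled to equal medians and 0.05 in the authors' processed values. With equal medians, 7 members were higher past the limit and 0 lower, where 12.5% of all detected genes were higher and 13.3% lower. In the authors' processed values, 7 members were higher and 0 lower, where 13.5% of all detected genes were higher and 15.3% lower.

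**Figure D2:**
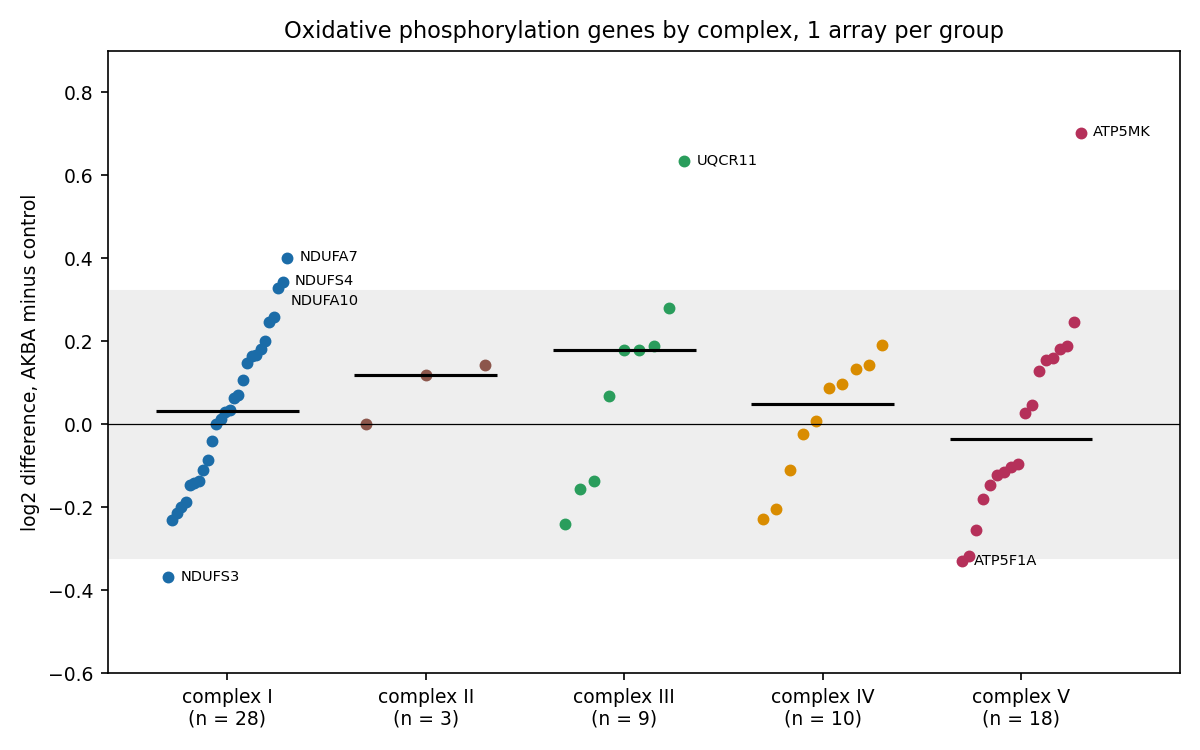
Each point is 1 detected member, placed by complex, with its log2 difference (AKBA minus control) on the y axis, the complex median as a black line and the band inside the limit of 0.32 in grey. The 7 named members lie outside the band, the highest being ATP5MK at 0.70 and the lowest NDUFS3 at -0.37.

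The promoters of the 2 highest and the 2 lowest members are shown here, since these genes mark the ends of the range. ATP5MK and UQCR11 were each measured by 1 probe near the lowest detected signals. The second probe of ATP5F1A stood at 0.004, so the ends of the range are uncertain. The sequences are from RefSeq, build GRCh38.p14, from 250 bases before to 50 bases after the annotated start, written 5′ to 3′ on the strand of the gene. Capitals mark letters that match, on either strand, the motif of nuclear respiratory factor 1 (NRF1, searched as GCGCA, any base, then GCGC), of the ETS factor GABPA (CCGGAAG), of YY1 (AAGATGGC) or of SP1 (GGGCGGG). A match on the other strand appears as the reverse complement, and a pair of ETS matches overlaps in ATP5MK. NRF1, GABPA and YY1 are known regulators of nuclear genes for mitochondrial proteins, and SP1 binds many promoters of broadly expressed genes.
ATP5MK (chr10:103396426-103396725, minus strand): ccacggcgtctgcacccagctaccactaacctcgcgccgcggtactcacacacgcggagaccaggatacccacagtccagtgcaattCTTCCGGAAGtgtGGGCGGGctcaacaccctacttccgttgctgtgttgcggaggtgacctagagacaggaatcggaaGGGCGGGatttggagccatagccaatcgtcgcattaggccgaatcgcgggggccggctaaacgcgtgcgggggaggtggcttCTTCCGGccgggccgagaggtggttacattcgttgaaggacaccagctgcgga
UQCR11 (chr19:1605413-1605712, minus strand): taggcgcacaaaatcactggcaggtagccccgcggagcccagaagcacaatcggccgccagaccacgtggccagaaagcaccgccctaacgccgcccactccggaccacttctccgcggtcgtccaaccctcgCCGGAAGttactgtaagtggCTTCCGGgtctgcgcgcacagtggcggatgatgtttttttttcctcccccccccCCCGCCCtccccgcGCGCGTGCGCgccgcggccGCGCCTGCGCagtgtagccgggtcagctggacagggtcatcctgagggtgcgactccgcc
NDUFS3 (chr11:47578824-47579123, plus strand): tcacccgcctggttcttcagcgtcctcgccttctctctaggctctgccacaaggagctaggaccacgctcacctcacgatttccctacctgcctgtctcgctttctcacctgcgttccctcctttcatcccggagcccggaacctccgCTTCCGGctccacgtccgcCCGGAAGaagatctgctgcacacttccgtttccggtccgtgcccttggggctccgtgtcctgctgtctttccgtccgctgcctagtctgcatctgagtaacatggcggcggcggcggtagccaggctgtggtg
ATP5F1A (chr18:46104178-46104477, minus strand): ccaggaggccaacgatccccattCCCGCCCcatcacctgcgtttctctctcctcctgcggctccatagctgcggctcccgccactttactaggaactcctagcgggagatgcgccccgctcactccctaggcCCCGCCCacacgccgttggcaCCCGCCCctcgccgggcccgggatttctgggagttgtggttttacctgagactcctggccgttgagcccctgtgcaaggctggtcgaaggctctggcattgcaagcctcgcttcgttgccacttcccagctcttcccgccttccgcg

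The ETS letters were present in both higher genes and in NDUFS3, and the NRF1 letters in UQCR11 alone of these 4. The YY1 letters were in 0 of the 4. SP1 letters were in ATP5MK, UQCR11 and ATP5F1A, in the last of these 3 times. No motif searched was found in both higher genes and in neither lower one. A match is a description of letters, and no match says only that these letters are not in this window.

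Of the 79 members, 64 had a promoter in the RefSeq table. NRF1 letters were found in 16 of these (25%), against 13.0% of the 7182 promoters of detected genes and 5.78% of all 35116 promoters in the table. ETS letters were found in 29.7%, 20.7% and 10.3% of the same sets, and YY1 letters in 14.1%, 6.15% and 2.89%. SP1 letters went the other way, at 23.4% of the members, 55.8% of the promoters of detected genes and 33.1% of all promoters. The members' differences were then set side by side by these letters. The 14 detected members with NRF1 letters had a median difference of 0.05, against 0.07 in those without. With ETS letters it was -0.01, against 0.09 without, and with YY1 letters 0.11, against 0.05 without. With SP1 letters it was 0.17, against 0.06 without. These medians are a description, since no test was made, and the motifs occur together in some promoters.

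Complex I, the NADH dehydrogenase, has a catalytic core conserved from bacteria, here NDUFS1, NDUFS3, NDUFS7, NDUFS8, NDUFV1 and NDUFV2, and a larger number of accessory subunits. NDUFS3, a core subunit of the arm that carries electrons to coenzyme Q, gave 4364 on the AKBA array and 6802 on the control array. Its normalized difference was -0.37, a fold of 0.774, the lowest of all members. The other detected core subunits stood at or above 0. NDUFV1, which binds NADH, had signals of 3783 on the AKBA array and 4782 on the control array and a difference of 0.00. NDUFV2, an iron-sulfur partner of NDUFV1, had 3445 on the AKBA array and 3748 on the control array, with a difference of 0.20. NDUFS7 stood at 0.11 and NDUFS8 at 0.16, both iron-sulfur subunits near the coenzyme Q site. NDUFS1 was not detected, with signals of 111 on the AKBA array and 112 on the control array and detection p of 0.0132 with AKBA and 0.0224 in the control. NDUFS3 therefore lay on the other side of 0 from NDUFS7, NDUFS8 and NDUFV2, and it was measured by 1 probe.

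Among accessory subunits, NDUFA7 gave 1160 on the AKBA array and 1119 on the control array, with a difference of 0.40, the highest of complex I. NDUFS4, whose loss causes complex I deficiency in humans and mice, had 3144 with AKBA and 3071 in the control, a difference of 0.34. Both were among the 5 members whose deposited signal was higher on the dimmer AKBA array. NDUFA10 stood at 0.33 with signals of 1140 on the AKBA array and 1156 on the control array, but its second probe, with 758 and 962 on the same arrays, stood at -0.02. NDUFB8, a membrane arm subunit often used as an antibody marker of complex I, had 9078 with AKBA and 9092 in the control, and a difference of 0.26.

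At the lower end of the accessory subunits, NDUFS5 had 8005 on the AKBA array and 11163 on the control array, with a difference of -0.23. NDUFB11 had 2478 with AKBA and 3551 in the control, a difference of -0.21, and NDUFA8 had 3415 with AKBA and 4880 in the control, a difference of -0.20. These 3 genes code for subunits of the membrane arm. The 8 detected NDUFB genes, which code for subunits of the distal membrane arm, had a median of -0.11 with 3 above and 5 below 0, and all 8 lay inside the limit. The 15 detected accessory genes of the other NDUF series had a median of 0.06, with 10 above and 5 below. The ranges of these sets overlapped, at -0.21 to 0.26 for NDUFB genes and -0.23 to 0.40 for the others. NDUFA5, NDUFB1, NDUFB4, NDUFS1 and NDUFS6 were detected on neither array, NDUFB4 with all 3 of its probes, so these subunits were not measured.

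Complex II, succinate dehydrogenase, is shared by the respiratory chain and the tricarboxylic acid cycle. SDHA, the flavoprotein that oxidizes succinate, had signals of 2209 on the AKBA array and 2729 on the control array, and a difference of 0.002. Its second probe, at 1397 with AKBA and 1759 in the control, stood at 0.005. SDHC and SDHD anchor the enzyme in the membrane. SDHC had 1155 on the AKBA array and 1322 on the control array, a difference of 0.14, and its second probe stood at 0.12. SDHD had 1523 with AKBA and 1770 in the control, a difference of 0.12. In SDHA and SDHC the further probe lay within 0.03 of the first, and all 3 genes lay inside the limit. SDHB was not analysed here.

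Complex III, the cytochrome bc1 complex, is represented by its core proteins UQCRC1 and UQCRC2, by small subunits and by copies of subunit genes. UQCRFS1 was not analysed here. CYC1, which codes for cytochrome c1, lies outside the symbols searched and is counted with the electron carriers below. It had 3678 on the AKBA array and 4433 on the control array, and a difference of 0.06. UQCRC1 had signals of 2315 on the AKBA array and 2736 on the control array and a difference of 0.07. UQCRC2 had 1379 with AKBA and 1444 in the control, a difference of 0.28. Neither core protein lay past the limit. UQCR11, a small membrane subunit, stood highest in the complex at 0.63, with signals of 208 on the AKBA array and 181 on the control array. The lowest detected signal was 141 on the AKBA array and 138 on the control array, so both values lie close to it, and the difference without background correction was 0.44. The deposited ratio of AKBA over control was 1.15 for UQCR11, where the median member had 0.844.

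The small subunits below 0 were UQCRB, UQCRQ and UQCRH. UQCRB had 1246 on the AKBA array and 1835 on the control array and a difference of -0.24, while its second probe, at 174 with AKBA and 198 in the control, stood at 0.09. UQCRQ had 9076 with AKBA and 11540 in the control, a difference of -0.16. UQCRH, the hinge protein next to cytochrome c1, had 12572 with AKBA and 15199 in the control and a difference of -0.14. Its second probe, at 1145 with AKBA and 1123 in the control, stood at 0.38, so the probes of UQCRH and UQCRB lay on opposite sides of 0. UQCR10 had 3 probes, at 0.18, -0.03 and 0.36, the first of these with 594 on the AKBA array and 665 on the control array.

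The symbols UQCRHL and UQCRBP1 name a copy of UQCRH and a transcribed pseudogene of UQCRB. UQCRHL had 12574 on the AKBA array and 12494 on the control array and a difference of 0.18. UQCRBP1 had 3635 with AKBA and 3990 in the control, a difference of 0.19. Signal from a near-identical parent transcript cannot be told apart from that of the copy on such a probe, and both copies stood above 0 where the brightest probes of UQCRH and UQCRB stood below. Without them the median of complex III was 0.07 over 7 genes, in place of 0.18 over 9.

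Complex IV, cytochrome c oxidase, had 10 detected genes with COX4 to COX8 symbols, each with 1 probe. Their range was the narrowest after complex II, with none past the limit. The detected gene COXFA4 has a symbol outside those searched and is not counted here, though at 0.23 it stood above all 10. COX4I1, the largest nuclear subunit, had signals of 12967 on the AKBA array and 16870 on the control array and the lowest difference of the complex, -0.23. COX6C had 7099 with AKBA and 9992 in the control, a difference of -0.20, and COX7C had 13326 with AKBA and 16028 in the control, a difference of -0.11. These subunits lie in or close to the membrane around the mitochondrially encoded core. COX8A, at 8469 with AKBA and 10436 in the control, stood at -0.02. At the other end, COX5A, which lies on the matrix side, had 8429 with AKBA and 9020 in the control and a difference of 0.19. COX6A1 had 3477 with AKBA and 3921 in the control, a difference of 0.14. The gene COX6A1 codes for the form used outside heart and muscle. COX7A2 had 9762 with AKBA and 10450 in the control, a difference of 0.13. COX6B1 stood at 0.10, with 8532 on the AKBA array and 9668 on the control array. The remaining genes were COX7B at 0.09, with 3211 on the AKBA array and 3742 on the control array, and COX5B at 0.01, with 6593 on the AKBA array and 7831 on the control array.

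Several complex IV subunits have a second isoform that is used in particular tissues, and in each pair here the widely expressed isoform was detected on both arrays and the other on neither. COX4I2, known from lung and hypoxic cells, had signals of 74.7 on the AKBA array and 74.6 on the control array, with detection p of 0.283 with AKBA and 0.366 in the control. COX6A2, the heart and muscle form, had 66.2 with AKBA and 64.6 in the control. COX7A1, likewise a heart and muscle form, had 76.0 on the AKBA array and 59.0 on the control array, with detection p of 0.240 and 0.957 on the same arrays. These signals lie below the lowest detected signal, so they have no order. The testis form COX6B2 had a detection p of 0.188 with AKBA and 0.360 in the control by the brighter of its probes, COX7B2 had 0.660 with AKBA and 0.705 in the control, and COX8C had 0.478 with AKBA and 0.336 in the control. AKBA treatment was thus not accompanied by detection of any of the 6 isoforms.

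**Figure D3:**
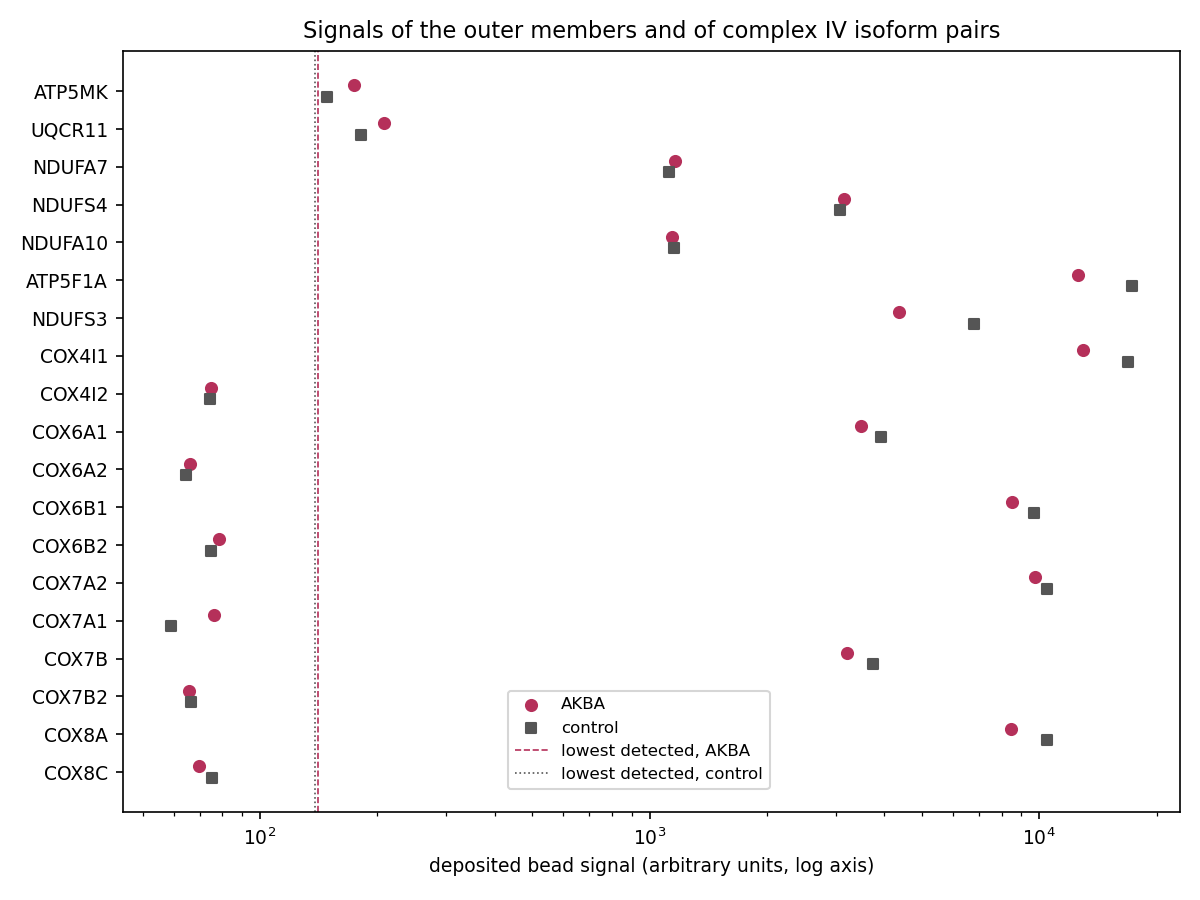
Deposited bead signals (log axis) on the AKBA array (circles) and the control array (squares) for the 7 members past the limit and for 6 isoform pairs of complex IV, with dashed and dotted lines at the lowest detected signal of each array. The second isoforms lie left of both lines, ATP5MK and UQCR11 lie just right of them, and the circle lies left of the square for all the widely expressed isoforms shown.

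Complex V, the ATP synthase, consists of the catalytic F1 head, the c ring that rotates in the membrane, a peripheral stalk and small membrane subunits. In F1, ATP5F1A (the alpha subunit) had signals of 12585 on the AKBA array and 17262 on the control array and a difference of -0.33. Its second probe, at 13104 with AKBA and 14766 in the control, stood at 0.004, so the lower value of ATP5F1A rested on 1 of its 2 probes. Relative to the median of all detected genes, ATP5F1A stood at -0.11 with the arrays scaled to equal medians and at -0.09 in the authors' processed values. ATP5F1B, the catalytic beta subunit, had 25249 with AKBA and 26815 in the control, a difference of 0.05. ATP5F1C, the gamma subunit that turns inside the head, had 3566 with AKBA and 3889 in the control, a difference of 0.19. ATP5F1D stood at -0.10 with 4482 on the AKBA array and 5764 on the control array, and at 0.06 by its second probe. By the brightest probe of each gene, the subunits of one head lay on both sides of 0. The genes below 0, ATP5F1A and ATP5F1D, each had a second probe above it, so this split depended on the probe.

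The 3 genes ATP5MC1, ATP5MC2 and ATP5MC3 code for the same mature c subunit. ATP5MC1 had 3289 on the AKBA array and 5040 on the control array and a difference of -0.32, just inside the limit. Its second probe, at 167 with AKBA and 228 in the control, stood at -0.30, and ATP5MC1 was the lowest member on which 2 probes lay on the same side of 0. ATP5MC2 had 4690 with AKBA and 4858 in the control, a difference of 0.25. Its second detected probe, at 151 with AKBA and 162 in the control, stood at 0.17. ATP5MC3 had 226 with AKBA and 293 in the control, a difference of -0.12. The genes of the c subunit therefore differed in direction, with both detected probes of ATP5MC1 below 0 and both of ATP5MC2 above. The second probes of both genes lay near the lowest detected signals, 141 on the AKBA array and 138 on the control array, so they add little.

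Of the peripheral stalk genes, ATP5PB had 5138 on the AKBA array and 6673 on the control array, a difference of -0.12, and its second probe stood at 0.11. ATP5PF had 6030 with AKBA and 7830 in the control, a difference of -0.10, and its further probes stood at -0.19 and 0.28. Both genes therefore had probes on either side of 0. ATP5PD stood at 0.15 and by its second probe at 0.07, and ATP5PO at 0.16. Among the small membrane subunits, ATP5MK stood highest of all members at 0.70, a fold of 1.63, with signals of 175 on the AKBA array and 148 on the control array. Both signals lie near the lowest detected, and without background correction the difference was 0.45. ATP5MJ stood at -0.18, with 1551 on the AKBA array and 2191 on the control array. Probes of 3 further genes lay on opposite sides of 0. ATP5ME stood at -0.15, with 9196 on the AKBA array and 11768 on the control array, and at 0.38 by its second probe, with 1192 and 1168 on the same arrays. ATP5MF stood at 0.03, with 5837 on the AKBA array and 7054 on the control array, and at -0.21 by its second probe. ATP5MG stood at 0.13, with 9537 on the AKBA array and 10333 on the control array, and at -0.09 by its second probe. The order of these subunits thus depended on the probe.

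The ATP5 symbols also covered 2 genes that are no subunit genes. ATP5IF1, the inhibitor that blocks ATP hydrolysis by the enzyme, had signals of 1222 on the AKBA array and 1372 on the control array and a difference of 0.18. Its second probe, at 225 with AKBA and 337 in the control, stood at -0.38, the widest distance among member probes detected on both arrays. ATP5F1EP2, a pseudogene of the epsilon subunit gene, had 16589 with AKBA and 21228 in the control, a difference of -0.26, and its second probe stood at -0.16. Signal from the epsilon subunit transcript cannot be told apart from that of the pseudogene on these probes.

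The probes of one gene are the only repeat that 1 array per group gives, and they share the RNA extract and the array. Of 20 members with more than 1 probe detected on both arrays, 8 had all probes on the same side of 0 (40.0%), against 59.3% of the 1677 such genes on the arrays. The median distance between the highest and lowest probe of a member was 0.22, against 0.21 over those genes. The median deviation of a probe from the mean of its gene was 0.11 in the members and 0.10 over those genes. The standard deviation across the 68 members was 0.21, which is a different measure from either of these. Of the 7 members past the limit, NDUFA10 and ATP5F1A had a second detected probe, which stood at -0.02 and 0.004. ATP5MK, UQCR11, NDUFA7, NDUFS4 and NDUFS3 had 1 probe each.

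**Figure D4:**
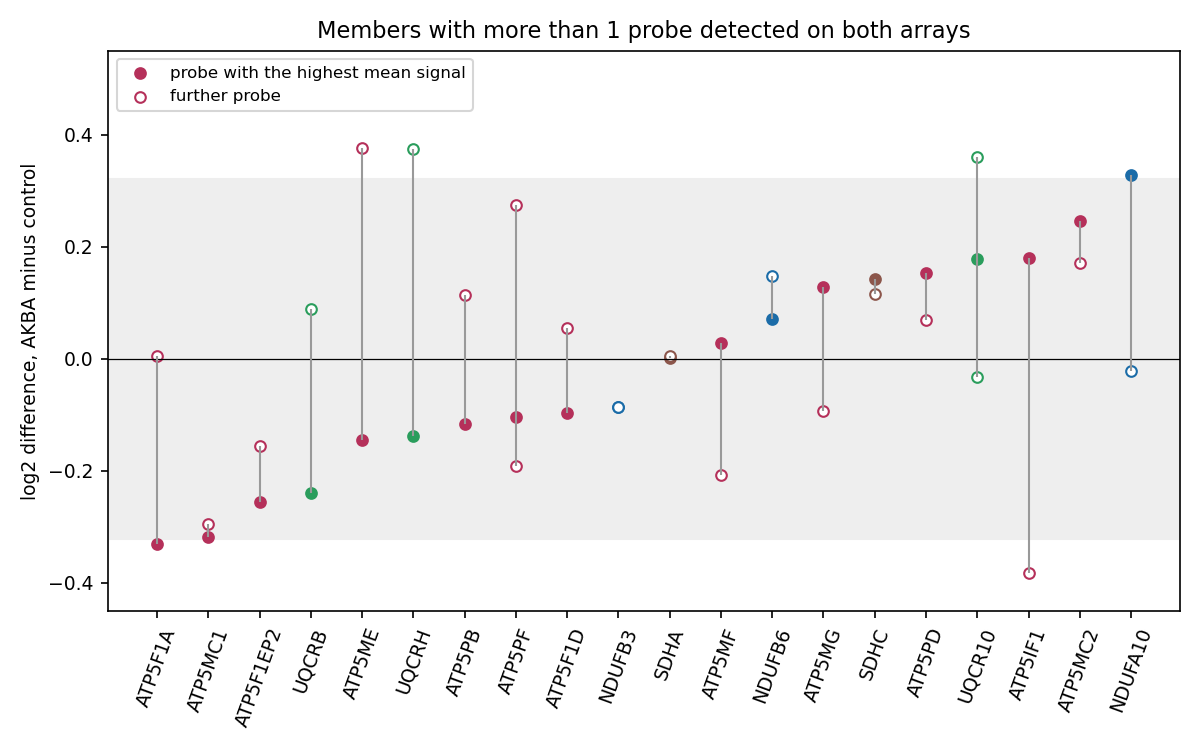
For the 20 members with more than 1 probe detected on both arrays, the log2 difference (AKBA minus control) of the probe with the highest mean signal (filled, coloured by complex) and of further probes (open), with the band inside the limit of 0.32 in grey. The lines joining the probes cross 0 in 12 genes, and the longest belongs to ATP5IF1.

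Assembly factors, which build the complexes but are no part of them, and other genes of the pathway were described as lists, beside which 11.1% of all detected genes were higher and 15.1% lower past the limit. Of 18 detected factors of complex I, 16 of them on both arrays, 3 lay above the limit and 2 below, with a median of 0.11, and the ends were LYRM2 at 0.58 and NUBPL, an iron-sulfur delivery factor, at -0.53. The 3 detected factors of complex II (median 0.23) and the 5 of complex III (median 0.09) lay above 0 and inside the limit. Of 23 factors of complex IV, 3 were higher and 2 lower, with a median of 0.001, and the ends were SURF1 at 0.55 and COX16 at -0.34. These counts for complexes I and IV were close to the shares over all detected genes. Of 5 factors of complex V, 1 was higher (FMC1, 0.43) and 0 were lower. Of 17 detected electron carriers and enzymes of coenzyme Q synthesis, 0 were higher and 1 was lower. That gene was CYCS, cytochrome c, which had signals of 247 on the AKBA array and 371 on the control array and a difference of -0.37.

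Of 15 regulators of mitochondrial biogenesis, 8 were detected, with 2 above the limit and 1 below, beside the same 11.1% and 15.1% of all detected genes. YY1 stood highest at 0.47, with signals of 1531 on the AKBA array and 1415 on the control array, and GABPB1, the partner of GABPA, at 0.42 with 557 and 535 on the same arrays. PPRC1, a coactivator of the PGC-1 family, stood lowest at -0.36 with 1017 on the AKBA array and 1615 on the control array. GABPA stood at -0.02 and ESRRA at -0.12. PPARGC1A, PPARGC1B and NRF1 were detected on neither array.

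**Figure D5:**
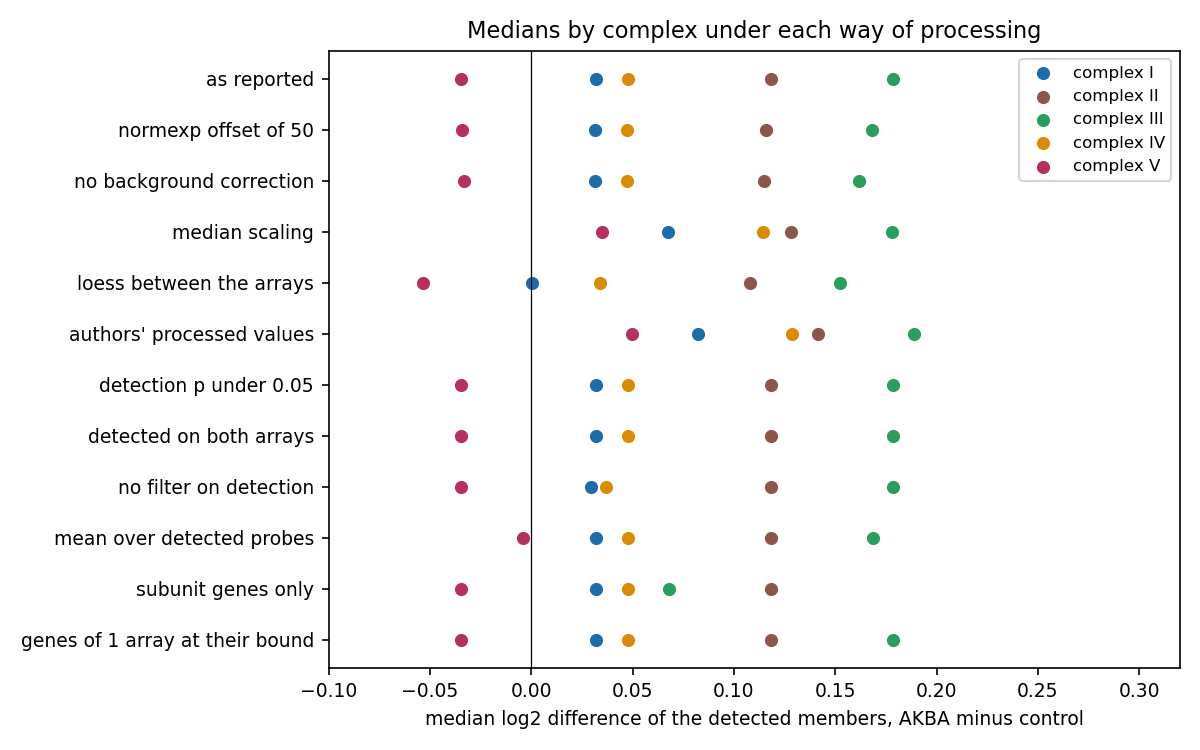
The median log2 difference of the detected members (AKBA minus control) on the x axis for each complex, under the processing used here (top row) and each alternative, where median scaling and the authors' processed values are given relative to the median of all detected genes. Complex III lies furthest right except in the row of subunit genes only, where its median is 0.07, and the median of complex V changes side in 2 rows.

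As a check of the label, the epithelial genes EPCAM, CDH1, KRT8, KRT18, KRT19 and CDX2 were detected on both arrays and the other 6 of 12 colorectal epithelial markers, among them KRT20 and VIL1, on neither. Their differences ran from -0.40 (CDX2) to 0.59 (KRT18). KRT18 had 221 on the AKBA array and 196 on the control array, close to the lowest detected signals of 141 and 138. Of 11 markers of leukocytes, endothelium, fibroblasts and muscle with a probe, 10 were detected on neither array, and ACTA2 was detected on both at 653 with AKBA and 797 in the control.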

How the data were processed

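Labelled cRNA was made from column-purified total RNA, per the labels' protocols, and read on Illumina bead arrays. The deposited intensity per probe is a bead signal without background subtraction or scaling, as the values show, and the deposited detection p-value compares it with negative controls. The authors' processed intensity values were linear functions of these signals, with slopes of 1.20 on the AKBA array and 1.00 on the control array. No software or version for these steps appears in the labels.

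All 48803 probes were processed with neqc of limma 3.58.1 in R 4.3.3 (normexp from the detection p, offset 16, quantile normalization, log2), and summarised with Python 3.11.15. For 28098 probes the annotation gave 1 gene, with symbols updated through RefSeq identifiers. A gene was represented by its probe with the highest mean normalized signal and kept if detected on at least 1 array at a p under 0.01. With 1 array per group nothing was tested, and the number of arrays limits the precision.

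The members, the lists of other genes and the fold limit were chosen with earlier results of these data known. Values are given for the 4 highest and 4 lowest members of complexes I, III, IV and V, all of complex II, isoform families, core subunits and members with probes on opposite sides of 0. Alternatives were loess, median scaling, an offset of 50, no background correction, the authors' values, other detection limits, means over probes, subunit genes only, bounds for genes of 1 array and other folds. The steps were tested on simulated data.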

Additional observations from a re-analysis of the deposited data

How the results depend on the processing

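No paired analysis was possible because each group had 1 array. The median of all members ran from 0.03 to 0.12, of complex I from 0.0005 (loess) to 0.08, of complex II from 0.11 to 0.14, of complex III from 0.07 to 0.19 and of complex IV from 0.03 to 0.13. In complex I, loess left a median of about 0. Values under median scaling and the authors' processed values are relative to the median of all detected genes, which stood at -0.32 and -0.11 there. On that scale the median of complex V was -0.01 as reported, 0.0348 under median scaling and 0.0495 under the authors' values. The ranges above put these values beside unshifted ones. With subunit genes only, the median of complex III was 0.0678, because copies of subunit genes were left out. Lower past the limit were 2 members as reported, 0 under median scaling, 0 under the authors' values and 1 with the mean over probes. Of all detected genes, 15.1% were lower as reported, 13.3% under median scaling, 15.3% under the authors' values and 14.5% with that mean. At 1.5-fold, 2 members were higher and 0 lower, where 2.91% of the detected genes were higher and 4.36% lower. At 2-fold, 0 members were higher and 0 lower, where 0.405% of the detected genes were higher and 0.347% lower. At the limit of 0.32, the number higher, 5 as reported, ran from 4 to 7, and the number lower from 0 to 3. The share of all genes past that limit ran from 8.09% to 13.6% higher and from 10.3% to 16.2% lower. ATP5MK ran from 0.45 without background correction to 0.84 with the authors' values and UQCR11 from 0.44 to 0.71, both near the detection limit. ATP5F1A stood at -0.09 with the authors' values, -0.11 with median scaling and -0.16 with the mean over probes, and NDUFA10 at 0.15 with that mean. NDUFS3 ran from -0.38 to -0.28, NDUFA7 from 0.38 to 0.42 and NDUFS4 from 0.33 to 0.40. The cause of these shifts was not tested.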

Other observations

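Genes that feed the respiratory chain were measured on the same arrays. Of 16 detected genes of the tricarboxylic acid cycle and pyruvate dehydrogenase, 5 stood above 0 and 11 below, with a median of -0.09, against -0.02 over all detected genes and 0.04 over the members. Past a log2 difference of 0.32, 2 were higher and 2 lower, close to the 11.1% and 15.1% of all detected genes that were. DLD, the dihydrolipoamide dehydrogenase shared by the 2-oxoacid dehydrogenases, stood at 0.54 with signals of 1924 on the AKBA array and 1674 on the control array. SUCLG1, a subunit of succinyl-CoA ligase, stood at 0.43 with 1851 with AKBA and 1731 in the control. IDH3A, the catalytic subunit of the NAD-dependent isocitrate dehydrogenase, stood lowest at -0.56 with 544 on the AKBA array and 971 on the control array. IDH3B, a subunit of the same enzyme, stood at -0.36 with 1526 with AKBA and 2435 in the control, and the third subunit gene, IDH3G, at -0.10.

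Of 13 detected genes that maintain and transcribe the mitochondrial genome, 3 stood above 0 and 10 below, with a median of -0.08. Over all 8639 detected genes, 4006 stood above 0 and 4624 below. Past the limit, 1 was higher and 3 were lower, where 11.1% of all detected genes were higher and 15.1% lower. Of the 13 genes, 12 were detected on both arrays. The count of lower genes includes POLG2, an accessory subunit of the mitochondrial DNA polymerase. POLG2 was detected on the control array only, at 187, with 127 on the AKBA array. Its place in that count rests on a signal that was not detected, so it is given no fold. Of the genes detected on both arrays, TWNK, the mitochondrial DNA helicase, was the lowest at -0.42 with 332 on the AKBA array and 527 on the control array, and MGME1, a mitochondrial exonuclease, at -0.37 with 934 with AKBA and 1494 in the control. TK2, the mitochondrial thymidine kinase, stood highest at 0.43 with 183 with AKBA and 175 in the control, near the detection limit. TFAM, which packages and transcribes mitochondrial DNA, stood at -0.02. Of 9 detected carriers and related genes, 1 was higher past the limit and 0 lower, beside the same 11.1% and 15.1%. The adenine nucleotide carriers SLC25A4 and SLC25A5 stood at 0.25 and -0.02, and the phosphate carrier SLC25A3 at -0.12. Genes in these paragraphs other than the list ends were named after their values were seen.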
